A study of Mus musculus with 8 samples.

Results

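The genes described here are the ATP-binding cassette (ABC) transporter family, measured by RNA sequencing in Ly6C-high monocytes sorted from mouse bone marrow. A gene was taken as a member where its symbol in the deposited table begins with Abca to Abcg followed by a number, which picked 38 of 15566 genes. GENCODE M21 annotates 50 protein-coding genes with such symbols, and the other 12 were not analysed here. By subfamily these are 12 genes of A, 8 of B, 6 of C, 4 of D, 1 of E, 3 of F and 4 of G. The family was chosen by the log2 fold change of Abca6, one of the largest decreases between the genotypes, so values in that contrast are given as a description. The study compared 4 libraries from LysMDCommd10 mice with 4 libraries from Commd10fl/fl mice. All were untreated C57BL/6 males, 8 weeks old, and the controls were littermates of matched weight. In the deficient mice, Commd10, which encodes a COMMD-family adaptor of membrane protein trafficking, is deleted by a Cre recombinase driven from the LysM locus, which is active in myeloid cells at large. Cre had 499 to 987 counts in each deficient library and 0 in each control, which allows up to 0.211 CPM in the shallowest control, so the loss of Commd10 and the presence of Cre cannot be told apart. The sort took live CD45+ CD11b+ CD115+ cells, high for Ly6C and free of Ly6G and CD117. Nothing in the labels says whether the libraries came from separate mice, and the p-values then reflect only how much these samples vary, which may be technical.

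ABC proteins bind and hydrolyse ATP at paired nucleotide-binding domains. In subfamilies A, B, C, D and G these domains drive substrates across membranes: sterols and phospholipids in many A and G members, peptides, drugs and mitochondrial substrates in B, conjugates and organic anions in C, and very-long-chain acyl-CoA into peroxisomes in D. Members of E and F have no membrane-spanning part and act on ribosomes and in translation. In monocytes and macrophages the family is best known for cholesterol efflux through ABCA1 and ABCG1, whose genes are switched on by the liver X receptors when cells take up sterol.

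Libraries held 14231121 to 31040255 counts (controls) and 17099454 to 30722262 counts (deficient). Levels are given as CPM, the counts of a gene scaled to a fixed library total with TMM factors, and 1 count stood for 0.0322 to 0.0703 CPM. Adjusted p-values come from a fit of all 12938 tested genes, and the limit given for a count of 0 covers counting error only. Commd10 was lower among deficient libraries, at 19.6 to 24.4 CPM against 27.5 to 31.0 CPM in the controls (log2 fold change -0.46, SE 0.07, edgeR adjusted p = 0.0292). Lyz2, the gene at the LysM locus, was at 9501 to 11065 CPM against 20063 to 22817 CPM. The running numbers in the sample titles are lower for every control than for every deficient library; what they stand for is not given, and they cannot be told apart from the genotype. Of the genes that define classical monocytes, Ly6c2, Ccr2 and Csf1r were abundant in all 8 libraries. Ly6c2 was at 1742 to 1800 CPM among controls and 1827 to 2091 CPM among deficient libraries (edgeR adjusted p = 0.0958). Ccr2 was at 2383 to 2505 and 2258 to 2352 CPM (edgeR adjusted p = 0.205), so neither overlapped between the groups. Csf1r was at 1189 to 1359 and 1069 to 1291 CPM. Cd14 was weaker, at 21.8 to 41.5 and 28.5 to 37.4 CPM. Ly6g and Kit, which mark the cells left out by the sort, were at 0 to 0.423 CPM and 0.135 to 0.390 CPM. Of the lists of markers of other cells, neutrophil precursor markers were higher among deficient libraries in 7 of 7 tested genes, and erythroid, B cell and dendritic cell markers were lower in 8 of 9, 10 of 10 and 9 of 11. In bulk RNA, fewer cells of a type and less RNA per cell cannot be told apart.

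Levels of different members were compared per kb of exon, since a longer transcript gives more reads. Among the 36 members whose levels are reported, Abca7, a lipid transporter linked to phagocytosis, was at 63.1 ± 5.74 CPM per kb in the controls (SD, n = 4), and its lowest value (55.1) lay above the highest of the next (37.8). That next member was Abcd2, a peroxisomal importer of acyl-CoA, at 35 ± 2.33 CPM per kb. Abcf1, a translation factor, followed at 31.8 ± 0.782 CPM per kb, with control values that overlapped those of Abcd2. Subfamilies C, E and G were led by Abcc4, an exporter of organic anions and cyclic nucleotides (19.0 ± 0.750 CPM per kb), the only listed member of E, Abce1, a ribosome recycling factor (13.2 ± 0.591), and Abcg1, the sterol exporter (8.94 ± 1.19). Of these 36 members, 13 reached 5 CPM per kb among controls and 14 were under 1 CPM per kb. Of the 35 pairs of neighbours in this order, 22 overlapped over the 4 control libraries, so the exact order within such pairs is not resolved.

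**Figure D1:**
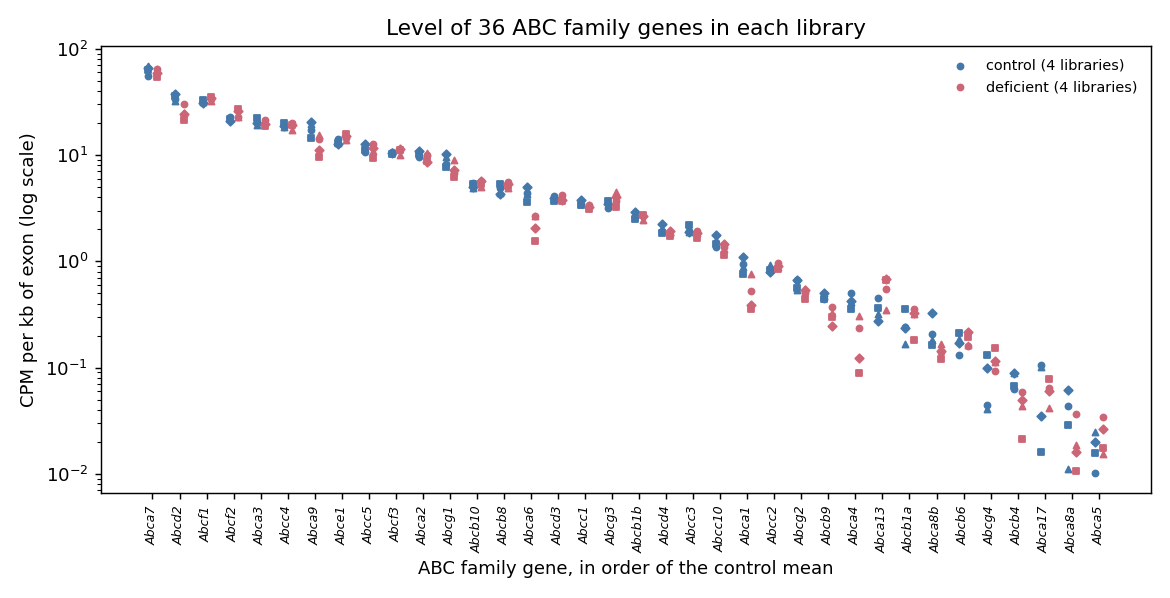
Level of 36 ABC family genes, in CPM per kb of exon on a log axis, with 1 point per library (circle, square, triangle and diamond for libraries 1 to 4 of each group; the numbers do not pair libraries). Genes are ordered by the control mean, from Abca7 at 63.1 to Abca5 at 0.0176 CPM per kb; the deficient points of Abca6, Abca1 and Abca4 lie below their control points.

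More ABC genes had lower than higher values in the deficient monocytes. Of the 35 members with enough counts to be tested, 23 were lower and 12 higher by sign, or 65.7% lower against 49.8% of all genes tested. Their median log2 fold change was -0.05, against 0.0007 over all genes. Only Abca6 passed an adjusted p of 0.05 in the edgeR quasi-likelihood fit of the whole table, 1 of 35 members where 0.873% of all genes passed in either direction, 0.518% as lower and 0.356% as higher. No member passed as higher. With DESeq2, 5 members passed as lower and 1 as higher, where 7.54% of the 11182 genes with an adjusted p passed, 4.01% as lower and 3.53% as higher. With limma-voom, 3 members passed as lower and 0 as higher, where 1.07% of all genes passed, 0.711% as lower and 0.363% as higher. Without a robust dispersion prior, edgeR called Abca6 alone of the members, and 0.317% of all genes. Since the family was chosen for that decrease, nothing is read from these counts. An unadjusted p under 0.05 was found in 11 lower members (31.4%, against 12.1% of all genes tested) and in 4 higher ones (11.4%, against 11.9%). The 4 deficient values lay below all 4 control values in 7 members (20.0%, against 6.7% of all genes; in Abca1 by less than the rounding) and above them in 1 (2.86%, against 5.93%). A log2 fold change of 0.5 or more in either direction was found in 9 members (25.7%, against 5.77% of all genes), while 19 members were within 0.15 of 0, as were 62.2% of all genes. These shares come from the contrast that led to the choice of the family and are a description of it.

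**Figure D2:**
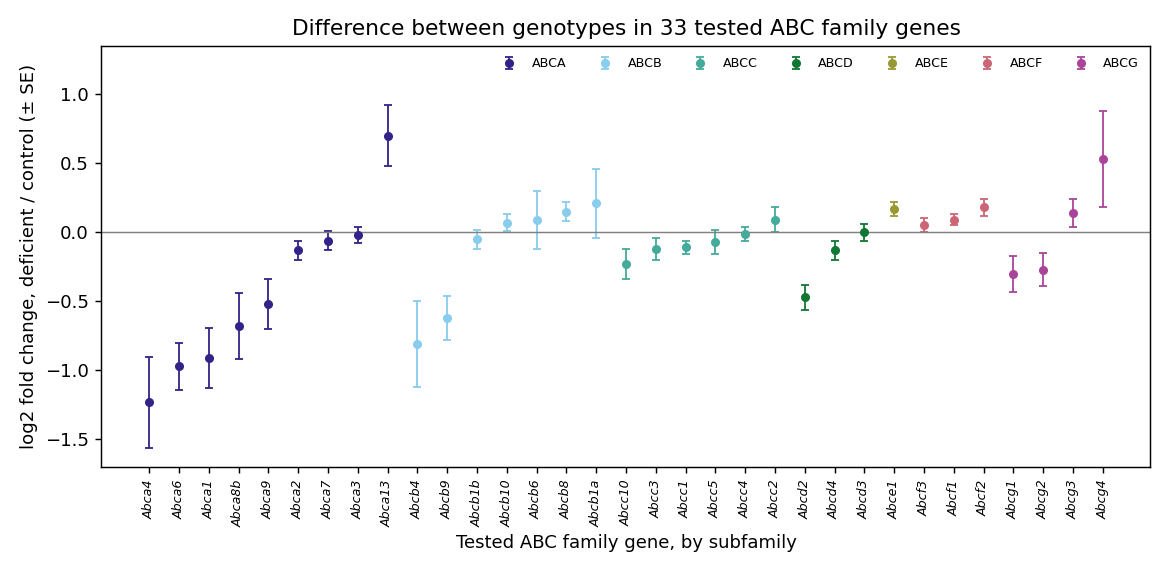
Log2 fold change of deficient over control for 33 tested ABC family genes, with bars of 1 SE from the edgeR fit, coloured by subfamily. Subfamily A runs from -1.23 (Abca4) to 0.70 (Abca13), and most members of B to G lie near 0.

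Subfamily A held the largest differences in both directions. Of its 9 tested members, 8 were lower and 1 higher among deficient libraries, with a median log2 fold change of -0.52. Abca6 (ENSMUSG00000044749, GRCm38 chromosome 11, 110176820 to 110251776, minus strand), a transporter thought to act in lipid handling, was at 23.7, 19.4, 23.0 and 26.9 CPM in control 1 to 4 and at 14.3, 8.38, 14.3 and 11 CPM in deficient 1 to 4. All 4 deficient values lay below the lowest control value, and deficient 2 was the lowest library. These values rest on 327 to 829 counts among controls and 245 to 440 among deficient libraries. The group means were 12.0 ± 2.87 against 23.2 ± 3.09 CPM (SD, n = 4 each), or 51.7% of the level in controls, which is -0.97 as a log2 fold change (SE 0.17). The call of Abca6 ended without control 1, 3 or 4 or deficient 4, where its edgeR adjusted p was 0.0940, 0.131, 0.153 and 0.176; over 15 alternatives it ranged from 1.78e-06 to 0.176.

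Abca6 lies in a row of 5 related genes on the same strand of chromosome 11, in the order Abca5, Abca6, Abca9, Abca8a and Abca8b in the direction of transcription. On the minus strand of GRCm38 the row runs from 110337716 down to 109932190. Abca9, the next gene after Abca6 with 8623 bases between them, was the most abundant of the row at 18.0 ± 2.77 CPM per kb in the controls, against 4.30 ± 0.573 CPM per kb for Abca6 (SD, n = 4). Abca9, a macrophage-expressed relative of Abca6, was at 138, 116, 159 and 165 CPM in control 1 to 4 and at 114, 76.5, 125 and 89.2 CPM in deficient 1 to 4. Control 2 lay below deficient 3, so the groups overlap. The log2 fold change of Abca9 was -0.52 (SE 0.18, edgeR adjusted p = 0.147). Within each library, Abca6 stood at 21.5% to 25.6% of the Abca9 level per kb among controls and at 16.3% to 18.8% among deficient libraries. Abca8b, whose product is a lipid transporter, was at 1.22 to 2.43 CPM among controls and 0.898 to 1.23 CPM among deficient libraries (log2 fold change -0.68, SE 0.24, edgeR adjusted p = 0.125), with control 4 the highest. Abca8a and Abca5 had too few counts to be tested, at 1 to 12 and 3 to 12 counts per library. Abca8a was at 0.0703 to 0.389 CPM among controls and 0.0665 to 0.228 CPM among deficient libraries, and Abca5 at 0.117 to 0.281 and 0.175 to 0.390 CPM. For Abca6 and Abca9, 0% of the 75-base windows of the annotated transcripts occur in another gene, and for Abca8a and Abca8b the share is 0.559% and 0.835%.

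**Figure D3:**
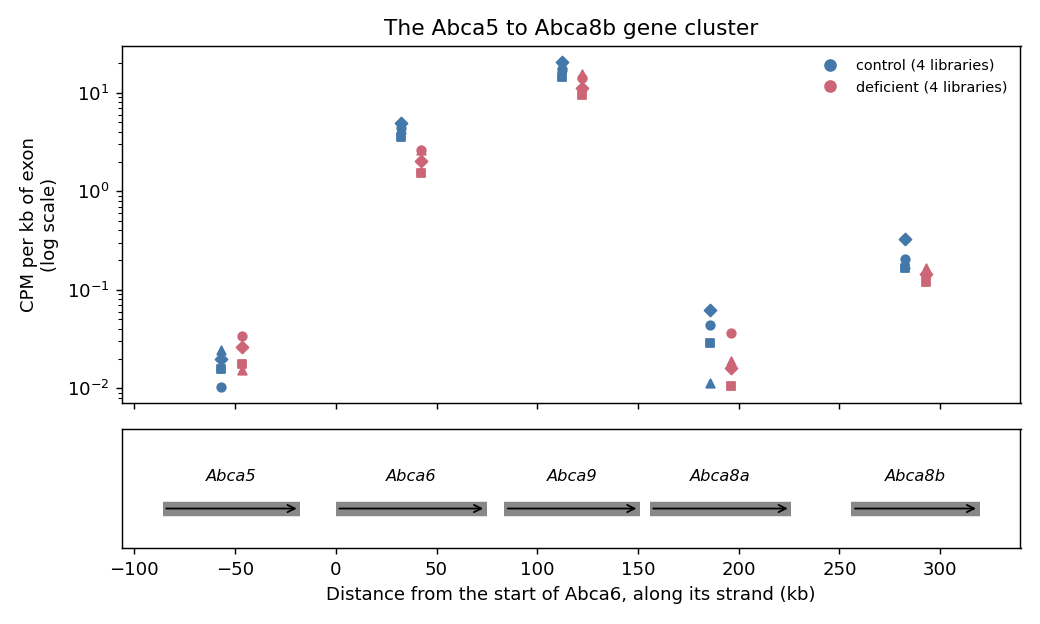
Upper panel, level of the 5 clustered genes in each library, in CPM per kb of exon on a log axis, plotted near the middle of each gene (markers as for libraries 1 to 4). Lower panel, the genes to scale, with arrows in the direction of transcription and distance in kb from the start of Abca6; Abca9 has the highest level and Abca6 the next, while Abca5 and Abca8a are near the limit of counting.

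The largest relative difference was in Abca4, known from the retina as an importer of retinoid lipids. Abca4 was at 6.05, 4.24, 4.99 and 5.03 CPM in control 1 to 4 and at 2.83, 1.06, 3.68 and 1.47 CPM in deficient 1 to 4, without overlap. Its level was 44.6% of that in controls (log2 fold change -1.23, SE 0.33, edgeR adjusted p = 0.0850), on 32 to 87 counts among deficient libraries. Abca1, which loads cholesterol and phospholipid onto apolipoprotein A-I, was at 9.84, 7.90, 9.20 and 11.5 CPM in control 1 to 4 and at 5.46, 3.69, 7.90 and 4.05 CPM in deficient 1 to 4. Control 2 and deficient 3 were equal to within rounding, and the other deficient values lay below every control. Abca1 had a log2 fold change of -0.91 (SE 0.22, edgeR adjusted p = 0.0736). Without deficient 3, Abca1 and Abca4 both passed, with edgeR adjusted p-values of 0.0170 and 0.0325. In that fit 479 of all genes passed, against 113 with all 8 libraries. Over 15 alternatives the adjusted p-values ranged from 0.0023 to 0.223 for Abca1 and from 0.00481 to 0.233 for Abca4.

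Abca13, one of the longest members, stood apart as the only tested gene of subfamily A with a higher value. It was at 8.87, 7.13, 6.25 and 5.42 CPM in control 1 to 4 and at 10.9, 13.1, 6.90 and 13.5 CPM in deficient 1 to 4. Deficient 3 lay among the controls. The log2 fold change of Abca13 was 0.70 (SE 0.22, edgeR adjusted p = 0.115). Its adjusted p was 0.018 to 0.274 over 15 alternatives, and 0.0267 in edgeR without deficient 3, where 479 of all genes passed. Deficient 1, 2 and 4 were the highest libraries for Abca13 and also for the summed level of 8 markers of neutrophil precursors. That sum was 1924, 2067, 1521 and 1684 CPM in control 1 to 4. In deficient 1 to 4 it was 2673, 3161, 1825 and 2830 CPM. Chil3 made up most of it, at 1598, 1807, 1285 and 1498 CPM in control 1 to 4. In deficient 1 to 4, Chil3 was at 2293, 2649, 1521 and 2350 CPM. Chil3 was abundant in every sorted library, so whether the sum reflects precursor cells cannot be told. Elane and Mpo had the smallest p of that list. Elane was at 47.0 to 69.5 CPM among controls and 77.4 to 115 CPM among deficient libraries, and Mpo at 26.8 to 39.4 and 40.3 to 66.2 CPM. The part of neutrophil precursors in the level of Abca13 was not tested. Of the well-expressed members of subfamily A, 3 had log2 fold changes near 0. Abca7 was at 426 ± 38.8 CPM among controls and 409 ± 31.0 CPM among deficient libraries (log2 fold change -0.06, SE 0.07). Abca3, which carries phospholipid into lamellar bodies in the lung, had -0.02 (SE 0.06), and Abca2, an endolysosomal lipid transporter, had -0.13 (SE 0.07). Of the windows of Abca3, 8.06% are shared with other genes, D330041H03Rik among them. Abca17 was too low to be tested, at 2 to 15 counts per library.

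The promoters of the members with the largest differences are shown to set the sequence upstream of lower members beside that of the higher one. Shown are the 250 bases before the RefSeq start (GRCm38.p6) of members with an unadjusted p under 0.05, an absolute log2 fold change of at least 0.5 and a mean of at least 5 CPM in a group. Of the 38 members, 28 have an entry in the RefSeq promoter table; Abca6 does not. Capitals mark matches on either strand to 5 motifs: AGGTCA, known from nuclear receptor sites; GAGGAA, the core bound by PU.1; TTGCNNAA, bound by C/EBP factors; CACGTG, an E-box; and TATAAA, known from core promoters. Abca1, Abca4 and Abca9 had lower values and Abca13 a higher one. They lie at chr4:53159896-53160145 on the minus strand, chr3:122044210-122044459 on the plus strand, chr11:110168154-110168403 on the minus strand and chr11:9191692-9191941 on the plus strand.
Abca1: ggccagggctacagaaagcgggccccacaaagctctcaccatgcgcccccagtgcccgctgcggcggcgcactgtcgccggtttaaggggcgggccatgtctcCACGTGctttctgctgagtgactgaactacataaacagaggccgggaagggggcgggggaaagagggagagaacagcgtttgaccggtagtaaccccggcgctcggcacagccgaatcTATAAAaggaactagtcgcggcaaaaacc
Abca4: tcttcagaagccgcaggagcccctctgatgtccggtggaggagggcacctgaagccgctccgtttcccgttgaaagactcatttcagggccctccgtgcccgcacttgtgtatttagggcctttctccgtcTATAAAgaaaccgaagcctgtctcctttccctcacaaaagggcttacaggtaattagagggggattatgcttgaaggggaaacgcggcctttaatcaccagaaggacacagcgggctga
Abca9: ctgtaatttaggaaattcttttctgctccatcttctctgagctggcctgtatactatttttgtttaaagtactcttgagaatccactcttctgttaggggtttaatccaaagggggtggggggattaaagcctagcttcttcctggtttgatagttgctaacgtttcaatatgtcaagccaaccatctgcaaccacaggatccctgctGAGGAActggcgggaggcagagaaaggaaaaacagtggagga
Abca13: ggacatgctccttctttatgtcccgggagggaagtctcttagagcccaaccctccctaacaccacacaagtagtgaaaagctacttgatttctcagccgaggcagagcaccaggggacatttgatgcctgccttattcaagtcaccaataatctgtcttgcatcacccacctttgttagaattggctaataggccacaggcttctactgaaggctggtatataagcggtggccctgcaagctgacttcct
Abca1 had CACGTG from 147 and TATAAA from 29 bases before the start, Abca4 had TATAAA from 119 bases before it, and Abca9 had GAGGAA from 42 bases before it. No 2 of these matches overlap. GENCODE M21 starts Abca9 at 110168196 and Abca4 at 122044443, inside the windows shown. The GAGGAA match of Abca9 therefore lies within the gene as annotated there, not upstream of it. Among all 32851 promoter windows of this length, 14% hold AGGTCA, 23.3% GAGGAA, 9.56% TTGCNNAA, 6.02% CACGTG and 12.4% TATAAA. Abca13 had no match to any of these letters, which says only that they are not in this window. Only exact matches were searched, so sites that vary from these letters are not marked, in Abca1 and the others too.

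Subfamily G held the sterol exporter partner of Abca1. Abcg1, which moves cholesterol to high-density lipoprotein, was at 59.9, 56.0, 70.5 and 74.4 CPM in control 1 to 4 and at 49.7, 45.0, 65.9 and 52.7 CPM in deficient 1 to 4. Deficient 3 lay among the controls and the other deficient libraries below them. The log2 fold change of Abcg1 was -0.30 (SE 0.13, edgeR adjusted p = 0.209). Per kb, Abca1 stood at 9.19% to 11.6% of Abcg1 among controls and at 5.41% to 8.44% among deficient libraries. Abcg2, an exporter of drugs and porphyrins, had 4.36 to 5.43 CPM against 3.59 to 4.44 CPM (log2 fold change -0.27, SE 0.12, edgeR adjusted p = 0.187). Abcg3, a rodent relative of Abcg2, and Abcg4, a sterol transporter best known in brain, had 0.14 (SE 0.10) and 0.53 (SE 0.35), the latter on 3 to 24 counts.

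Genes that work with these sterol exporters were counted from lists chosen with earlier results known. Of 19 tested genes of liver X receptor sensing and efflux, 13 were lower and 6 higher (median log2 fold change -0.10), and 0 passed the threshold in the edgeR fit. An unadjusted p under 0.05 in either direction was found in 11 of them (57.9%, against 24.0% of all genes tested). Closest were Mylip, a liver X receptor target that degrades the LDL receptor, at 13.7 to 20.8 CPM against 22.1 to 28.7 CPM (log2 fold change -0.64, SE 0.14, adjusted p = 0.0585), and the nuclear receptor gene Ppard, at 0.24 (SE 0.06, adjusted p = 0.0654). Lpcat3, a phospholipid-remodelling enzyme and another target of these receptors, was higher, at 38.8 to 47.9 CPM against 36.0 to 36.9 CPM (log2 fold change 0.22, SE 0.06, adjusted p = 0.0874). Lpcat3 was picked out after its value was seen. Of 18 genes of intracellular sterol handling, 15 were higher and 3 lower (median 0.07), 0 passed in the edgeR fit, and 8 had an unadjusted p under 0.05 (44.4%, against 24.0% of all genes). Closest were Nceh1, a cholesterol ester hydrolase (-0.23, SE 0.06, adjusted p = 0.0595), and Srebf2, the master regulator of sterol synthesis (0.25, SE 0.06, adjusted p = 0.0654). Macrophage markers, whose cells express these exporters strongly, had 8 of 12 lower, with a summed level of 378 to 439 CPM among controls and 375 to 431 CPM among deficient libraries. Most of that sum came from Adgre1, Hmox1 and Axl, so it says little of the weaker markers. Their means were 192, 112 and 68.4 CPM among controls and 177, 142 and 55.8 CPM among deficient libraries. In that list Hmox1, which degrades heme, passed as higher (0.34, SE 0.07, edgeR adjusted p = 0.0465). Its call ended without control 1, 3 or 4 or deficient 2 or 4, with limma-voom and without a robust prior, and over 15 alternatives its adjusted p was 0.00149 to 0.173. Mrc1, a mannose receptor gene picked out after its value was seen, had -1.0 (SE 0.22, adjusted p = 0.0646). The part of these cells in the levels of Abca1, Abca6 and Abca9 was not tested.

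In subfamily D, Abcd2 had the largest of the differences reported. Abcd2, which imports very-long-chain and polyunsaturated acyl-CoA into peroxisomes, was at 201, 213, 193 and 225 CPM in control 1 to 4 and at 179, 128, 148 and 145 CPM in deficient 1 to 4. The groups did not overlap, and deficient 1 lay nearest to the controls. Abcd2 was at 72.1% of its level in controls, on 2531 to 6937 counts per library (log2 fold change -0.47, SE 0.09, edgeR adjusted p = 0.0539). It passed without deficient 1 (edgeR adjusted p = 0.00339), a fit in which 522 of all genes passed, against 113 with all 8 libraries. Over 15 alternatives the adjusted p of Abcd2 was 0.000165 to 0.192. Abcd3, a peroxisomal half-transporter, was at 25.9 CPM in both groups (SD 1.33 and 1.61, log2 fold change -0.0003, SE 0.06). Abcd4, which serves vitamin B12 export from lysosomes, had -0.13 (SE 0.07). Of 22 other peroxisome genes, 14 were lower and 8 higher (median -0.07), with 0 past the threshold in the edgeR fit and 7 at an unadjusted p under 0.05 (31.8%, against 24.0% of all genes tested). Closest were Pex3, a peroxisome biogenesis gene (-0.20, SE 0.06, adjusted p = 0.0914), and Pex26, an anchor of the import machinery (0.30, SE 0.09, adjusted p = 0.102).

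Subfamily B had its largest differences in weakly expressed members. The lysosomal peptide transporter gene Abcb9 was at 2.50, 2.48, 2.81 and 2.82 CPM in control 1 to 4 and at 2.08, 1.66, 1.81 and 1.37 CPM in deficient 1 to 4, without overlap. Its log2 fold change was -0.62 (SE 0.16, edgeR adjusted p = 0.0736). The adjusted p of Abcb9 was 0.0418 in edgeR without deficient 1, where 522 of all genes passed, and 0.0418 to 0.224 over 15 alternatives. Abcb4, the phosphatidylcholine exporter of bile, was at 0.586 to 0.843 CPM among controls and 0.200 to 0.553 CPM among deficient libraries, on 6 to 26 counts (log2 fold change -0.81, SE 0.31, edgeR adjusted p = 0.144). Mitochondrial members had small positive log2 fold changes: Abcb8, linked to mitochondrial iron and potassium handling, had 0.15 (SE 0.07), and Abcb10, which supports heme synthesis, 0.07 (SE 0.06; 7.14% of its windows shared with Gm45890). Abcb6, a porphyrin transporter, had 0.09 (SE 0.21) on 14 to 34 counts, and 47.5% of its 75-base windows also belong to the overlapping gene Gm29253, so its reads cannot be assigned with certainty. The multidrug exporters Abcb1a and Abcb1b had 0.21 (SE 0.25) and -0.05 (SE 0.07), and 17.1% and 9.01% of their windows are shared with other genes, mainly each other.

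Genes that work with subfamily B members had medians near 0. Of 16 genes of iron-sulfur and heme synthesis, 10 were higher and 6 lower (median 0.02), with 0 past the threshold in the edgeR fit and 2 at an unadjusted p under 0.05 (12.5%, against 24.0% of all genes tested). Fech, the last enzyme of heme synthesis, had -0.16 (SE 0.05, adjusted p = 0.0915), and Slc25a38, a mitochondrial glycine carrier, -0.17 (SE 0.07, adjusted p = 0.139). Erythroid markers were at 429 to 747 CPM summed among controls and 274 to 499 CPM among deficient libraries, and their part in Abcb6, Abcb10 or Abcg2 levels was not tested. Tap1 and Tap2, the ABC genes of peptide supply to MHC class I that carry other names, had -0.08 (SE 0.05) and -0.05 (SE 0.04). Of 9 genes of peptide loading, 6 were higher and 3 lower (median 0.04), with 0 past the threshold in the edgeR fit and 4 at an unadjusted p under 0.05 (44.4%, against 24.0% of all genes tested). Closest were Tapbpl, a peptide-editing relative of tapasin (-0.19, SE 0.06, adjusted p = 0.106), and the chaperone gene Canx (0.14, SE 0.06, adjusted p = 0.153).

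Subfamily C showed small differences. Abcc1, which exports glutathione conjugates and leukotriene C4, was at 52.4, 51.1, 52.0 and 56.6 CPM in control 1 to 4 and at 50.9, 46.5, 50.6 and 48.5 CPM in deficient 1 to 4. The deficient values lay just below the controls, a log2 fold change of -0.11 (SE 0.05, edgeR adjusted p = 0.201). Abcc10, a broad exporter of conjugates and drugs, had -0.23 (SE 0.11, edgeR adjusted p = 0.203) with overlapping groups. Abcc4 was at 121 CPM in both groups (SD 4.79 and 7.16). Abcc5, an exporter of cyclic nucleotides and heme, had -0.07 (SE 0.09), Abcc3, an exporter of glucuronides, -0.12 (SE 0.08), and Abcc2, its relative at the apical membrane of hepatocytes, 0.09 (SE 0.09). Of 13 tested genes of glutathione and conjugate metabolism, 8 were higher and 5 lower (median 0.01), with 0 past the threshold in the edgeR fit and 3 at an unadjusted p under 0.05 (23.1%, against 24.0% of all genes tested). Gsto1, a glutathione transferase gene, had -0.19 (SE 0.05, adjusted p = 0.0736), and Nfe2l2, the oxidative stress regulator NRF2, had 0.12 (SE 0.05, adjusted p = 0.174).

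The soluble members of E and F all had higher values, by small amounts. Abce1 was at 84.3, 77.5, 77.2 and 77.0 CPM in control 1 to 4 and at 86.4, 95.1, 83.3 and 90.4 CPM in deficient 1 to 4. Control 1 lay above deficient 3, so the groups overlap (log2 fold change 0.17, SE 0.05, edgeR adjusted p = 0.0970). Abcf2, a cytosolic ATPase of this group, was at 58.7, 55.6, 56.0 and 54.0 CPM in control 1 to 4 and at 58.9, 70.0, 59.1 and 66.0 CPM in deficient 1 to 4. It was the only member whose deficient values all lay above the controls, and deficient 1 did so narrowly (log2 fold change 0.18, SE 0.06, edgeR adjusted p = 0.115). Abcf1, a partner of the initiation factor eIF2, had 0.09 (SE 0.04, edgeR adjusted p = 0.190), and Abcf3 0.05 (SE 0.05). Of 11 genes of ribosome splitting and initiation, 7 were higher and 4 lower (median 0.05), with 0 past the threshold in the edgeR fit and 2 at an unadjusted p under 0.05 (18.2%, against 24.0% of all genes tested). Eif2s1, a subunit of eIF2, had 0.21 (SE 0.05, adjusted p = 0.0654), and Eif3j1, which helps to split ribosomes, also 0.21 (SE 0.07, adjusted p = 0.115).

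The deficient libraries were not alike in these genes. Among the 11 lower members with an unadjusted p under 0.05, deficient 2 was the lowest library in 10 and deficient 4 in 1. In 7 of them, Abca1, Abca4, Abca6, Abca9, Abcb9, Abcc1 and Abcd2, both deficient 2 and deficient 4 lay below deficient 1 and deficient 3. In all 4 of the higher members with such a p, Abca13, Abce1, Abcf1 and Abcf2, deficient 2 and 4 lay above deficient 1 and 3. The share of all genes with these orders was not counted. Over the whole count table, deficient 2 differed from deficient 1 and 3 by 23.4 and 17.2 chi-square units per degree of freedom. Deficient 1 and 3 differed by 4.54 units, so the unlikeness of the libraries is not limited to ABC genes. Deficient 2 and 4 also had the highest summed levels of neutrophil precursor markers, at 3161 and 2830 CPM, of which Chil3 made up 2649 and 2350 CPM. Since Chil3 was at 1285 to 1807 CPM even in the sorted controls, whether this sum reflects precursor cells cannot be told. In deficient 1 to 4, Mpo was at 56.1, 64.5, 40.3 and 66.2 CPM and Elane at 90.8, 115, 77.4 and 109 CPM. Deficient 2 and 4 had the lowest summed levels of erythroid markers, at 274 and 303 CPM. The part of these cells in the ABC values was not tested.

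**Figure D4:**
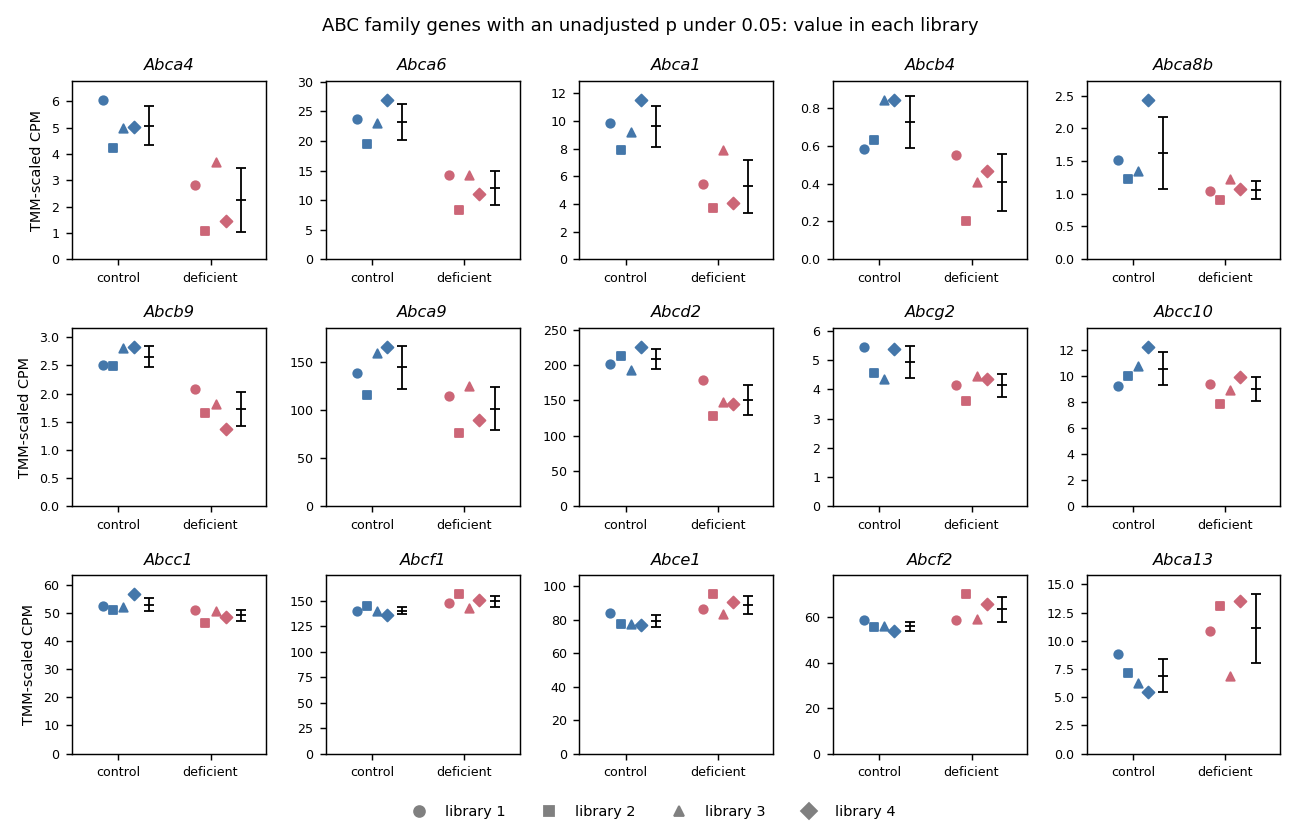
TMM-scaled CPM of the 15 ABC family genes with an unadjusted p under 0.05, ordered by log2 fold change, with 1 point per library and the mean ± SD (n = 4) in black; axes start at 0. In Abca6 the deficient libraries sit at 8.38 to 14.3 CPM, all below the controls at 19.4 to 26.9 CPM.

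Summed over all 38 members, the family took 2267 to 2466 CPM in the controls (mean 2377 ± 86.0, SD, n = 4) and 2082 to 2343 CPM among deficient libraries (mean 2232 ± 114), so the group ranges overlap. Subfamily A contributed 896 ± 53.1 CPM among controls (828 to 939) and 810 ± 74.3 CPM among deficient libraries (719 to 875), with overlapping ranges. Subfamilies C and G stood at 329 and 82.9 CPM among controls and at 317 and 71.8 CPM among deficient libraries, also with overlapping ranges. The sums of B and D are not reported here. Subfamily F was at 228 to 237 CPM among controls and 238 to 265 CPM among deficient libraries, a gap that is mainly in Abcf1 and Abcf2.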

How the data were processed

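Per the labels' protocols, polyadenylated RNA was read from 1 end on a NextSeq, and they mention no molecular identifiers. The authors deposited 1 table that holds a raw count per gene and library. No listed gene has a highest count under 6. The submitters' processing notes list HTSeq 0.12.4, STAR 2.7.3a, DESeq2 and cutadapt and the build GRCm38, with no order or role. No source used here states strandedness. A block of 8 columns of normalized values was not used, and the Cre row stayed out of library sizes and tests. Columns were matched to samples by title. Pairs of libraries of a group differed by 2.88 to 23.4 chi-square units per degree of freedom, so none was a copy.

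Low genes were removed by filterByExpr (at a minimum count of 10 and a total of 15, leaving 12938 genes). Counts were scaled with TMM and fitted with edgeR 4.0.16 (R 4.3.3), robust quasi-likelihood, genotype as the only term, two-sided, with Benjamini-Hochberg adjustment over all genes and a threshold of 0.05. SEs were derived from the F statistic. The script was tested on simulated data. Alternatives used DESeq2 1.42.0, limma-voom (limma 3.58.1), other scalings, filters and dispersion priors, and each library left out. Exon lengths and 75-base windows came from GENCODE M21. The members and lists were chosen with earlier results of these data known. Values of 2 members are not reported here, though the counts and sums over the family include them. Of the others, named are Abca6 and its gene cluster, members past the threshold or with an unadjusted p under 0.05, the most abundant member per subfamily, members with a set role, and of each list discussed the members past the threshold or else the 2 with the smallest p, beside Lpcat3 and Mrc1, which were picked out after their values were seen. Chil3, Itgb3 and Pecam1, and Adgre1 and Axl together with Hmox1, are named because they make up most of the summed level of their marker lists. Marker lists of T and NK cells, eosinophils, megakaryocytes and stroma are summarised only in the closing section.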

Additional observations from a re-analysis of the deposited data

Results flagged for a closer look

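Of 76 sets of 4 libraries (38 members in each group), 1 held a library far from the other 3 by Dixon's criterion, where chance gives about 1 in 20. In control 1, Abce1 reached 84.3 CPM, while the other controls had 77.0 to 77.5 CPM.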

How the results depend on the processing

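With 1 library left out, the number of all genes past the threshold ranged from 1 to 522, of ABC members from 0 to 4 and of list genes from 0 to 14, against 113, 1 and 1 with all 8. The most genes passed without deficient 1 (522) and without deficient 3 (479), and the fewest without control 1 (1). With DESeq2, 843 genes and 6 ABC members passed (Abca1, Abca4, Abca6, Abca13, Abcb9 and Abcd2, where 7.54% of all genes with an adjusted p passed); with limma-voom 3 members did (Abca1, Abca6 and Abcd2, where 1.07% passed). Without a robust dispersion prior 41 genes passed, and without Abca6 the count of members was 0 in the edgeR fit. Commd10 had log2 fold changes of -0.53 to -0.42 with 1 library left out and lost its call when control 1, 3 or 4 or deficient 4 was left out (adjusted p up to 0.138). Signs turned in 5 members near 0, with 1 library left out: Abca3 (-0.05 to 0.02), Abcb6 (-0.03 to 0.20), Abcc4 (-0.03 to 0.03), Abcc5 (-0.14 to 0.003) and Abcd3 (-0.04 to 0.03). Abcd3 was also at 0.0002 with median-of-ratios scaling and 0.001 with no low-count filter. The other 28 members reported kept their sign in every alternative run. The cause of these shifts was not tested. No paired analysis was possible because the labels give the groups no shared replicate numbers. Members under about 30 counts per library, such as Abcb4, Abcg4, Abca5, Abca8a and Abca17, are limited by depth.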

Other observations

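T and NK cell markers summed to 1.17 to 2.56 CPM among controls and 0.76 to 2.03 CPM among deficient libraries, with Cd3d and Cd8a at 0 in some libraries. Eosinophil, basophil and mast cell markers were lower in 5 of 6 tested genes (median log2 fold change -0.78), at 10.2 to 27.7 against 8.19 to 12.1 CPM summed. Megakaryocyte markers summed to 40.2 to 67.5 against 26.4 to 51.8 CPM, nearly all from Itgb3 (39.7 to 66.8 against 25.7 to 50.4 CPM). Stromal markers summed to 22.5 to 29.0 against 22.0 to 27.0 CPM, mostly from Pecam1 (20.8 to 27.8 against 20.6 to 25.6 CPM). Several markers of both lists, Pf4 and Col1a1 among them, were not among the listed genes. Mature neutrophil markers were higher in 11 of 14 genes (median 0.35), at 1228 to 1353 against 1214 to 1483 CPM. B cell markers had a median of -0.42, dendritic cell markers -0.23, and neutrophil precursor markers 0.75. Their part in the ABC values was not tested.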
